A study of Mus musculus with 11 samples.

Results

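Cadherins and catenins are the genes of the adherens junction, the contact at which neighbouring cells hold each other and anchor their actin filaments. The 9 genes described here are 5 cadherins (Cdh1, Cdh2, Cdh3, Cdh11 and Cdh13) and 4 catenins (Ctnna1, Ctnnb1, Ctnnd1 and Jup), found by symbol among 46469 symbols in the deposited tables. Each was listed at 1 locus, and 8 of the 9 were high enough to be tested, among 14942 genes tested in all. Only Cdh1 was too low.

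RNA was sequenced from mouse embryonic fibroblasts with 3 genotypes at Actb, the gene of cytoplasmic β-actin: 3 libraries with no intact copy (Actb -/-, here KO, replicates 1, 3 and 4), 4 with 1 copy (Actb +/-, Het) and 4 with both (Actb +/+, WT). All were of the BALB/c strain from embryos aged 10.5 days, grown in medium with 10% serum and harvested at 70% confluence. A further KO library failed the submitters' quality control and is not analysed here. The labels do not say whether replicates came from separate embryos or cultures, so the p-values measure only the spread between these libraries, which may be technical. Actb itself had 42.2 to 45.4 FPKM in KO, 839 to 888 in Het and 1074 to 1586 in WT. FPKM counts fragments relative to transcript length and to the library's total, so levels of different genes can be set side by side. Relative sequencing depth, estimated from genes at about 1 fragment, lay between 60.7% (WT 3) and 125% (WT 4) of WT 1.

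A classical cadherin spans the membrane, binds a cadherin of the next cell with its outer part, and holds catenins with its tail. β-catenin (Ctnnb1) or its relative plakoglobin (Jup) sits on the tail and binds α-catenin (Ctnna1), which reaches actin filaments, while p120-catenin (Ctnnd1) binds nearer the membrane and keeps the cadherin at the surface. Fibroblasts are known for N-cadherin (Cdh2) and cadherin-11 (Cdh11), epithelia for E-cadherin (Cdh1) and P-cadherin (Cdh3). T-cadherin (Cdh13) has no tail and is held by a lipid anchor.

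The comparisons below were fitted with limma on log2(FPKM + 1) after scaling between libraries, over all 14942 genes at once. Every adjusted p is limma's, adjusted by Benjamini and Hochberg over those genes, with a threshold of 0.05, and "rose" and "fell" are used only past it. Differences are on that log2 scale, on which changes of weakly expressed genes look smaller than they are, and are KO minus WT, Het minus WT or KO minus Het. The comparisons share libraries, so their values are not independent of each other.

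Fibroblasts with 1 intact Actb copy stood apart in their cadherins. Cdh2, Cdh3 and Cdh11 were all higher in Het than in both other genotypes, while KO and WT lay close together for Cdh2 and Cdh11. Summed over the 5 cadherins, the level was 42.6 to 43.1 FPKM in KO, 114 to 126 in Het and 41.3 to 46.4 in WT. The catenins moved far less, with sums of 402 to 418 FPKM in KO, 386 to 421 in Het and 350 to 370 in WT. The ratio of the cadherin sum to the catenin sum was thus 0.103 to 0.106 in KO, 0.295 to 0.303 in Het and 0.112 to 0.129 in WT.

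**Figure D1:**
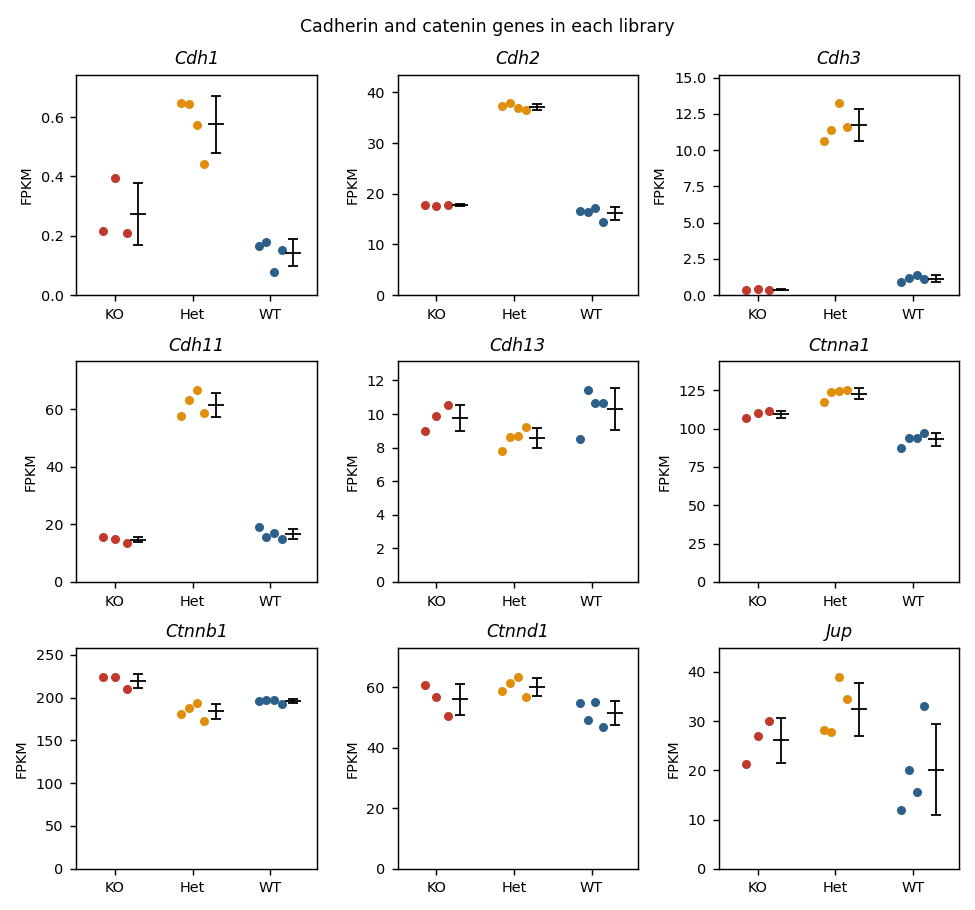
FPKM of the 9 genes (y axis, linear, from 0) in each library of KO (n = 3), Het (n = 4) and WT (n = 4). Points are libraries, and the bar beside them is the mean ± SD. All Het points of Cdh2, Cdh3 and Cdh11 lie above every KO and WT point, while the groups of Cdh13 and Jup overlap.

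N-cadherin is the main classical cadherin of mesenchymal cells. Cdh2 (gene41250, GRCm38 chromosome 18, 16588877 to 16809049) had 17.8, 17.5 and 17.9 FPKM in KO, 37.4, 37.9, 37.0 and 36.5 in Het, and 16.5, 16.4, 17.2 and 14.4 in WT. The Het libraries lay far above the others, and the KO libraries just above all WT ones. Means were 17.7 ± 0.172 (SD, n = 3) in KO, 37.2 ± 0.565 (SD, n = 4) in Het and 16.1 ± 1.23 (SD, n = 4) in WT. Het was 2.31-fold above WT (log2 difference 1.16, SE 0.0615, adjusted p = 1.69e-07), and KO lay below Het by a log2 difference of -0.93 (adjusted p = 1.2e-06). Cdh2 also rose slightly in KO against WT (0.23, adjusted p = 0.0146). That call was lost without scaling (0.13, adjusted p = 0.0913), with upper-quartile scaling (0.16, adjusted p = 0.147) and with only KO and WT in the fit (0.23, adjusted p = 0.0533).

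Cadherin-11, first described in osteoblasts, is a cadherin of mesenchyme and joint-lining fibroblasts. Cdh11 (gene21756, chromosome 8, 102632095 to 102785480) had 15.5, 14.8 and 13.6 FPKM in KO, 57.5, 63.4, 66.6 and 58.8 in Het, and 19.0, 15.5, 17.0 and 15.0 in WT. Het was again apart from both other groups, which overlapped. The Het mean of 61.6 ± 4.21 FPKM (SD, n = 4) was 3.70-fold the WT mean of 16.6 ± 1.80 (SD, n = 4), with a log2 difference of 1.83 (SE 0.0879, adjusted p = 8.26e-08). KO averaged 14.7 ± 0.936 FPKM (SD, n = 3), and its difference from WT of -0.07 had a 95% interval of -0.28 to 0.14 (adjusted p = 0.581). Against Het, KO differed by -1.90 (adjusted p = 7.18e-08). Cdh11 made up 32.0% to 36.2% of the cadherin sum in KO, 50.4% to 52.9% in Het and 34.8% to 42.2% in WT.

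P-cadherin, known from placenta and basal epithelium, differed by the largest fold between genotypes among the tested members. Cdh3 (gene21884, chromosome 8, 106510852 to 106556911) had 0.353, 0.434 and 0.356 FPKM in KO, 10.6, 11.4, 13.2 and 11.6 in Het, and 0.873, 1.16, 1.40 and 1.13 in WT. No 2 of the 3 genotypes overlapped, and KO was lowest. Het averaged 11.7 ± 1.10 FPKM (SD, n = 4), 10.3-fold the WT mean of 1.14 ± 0.214 (SD, n = 4), with a log2 difference of 2.56 (SE 0.0889, adjusted p = 7.45e-09). KO, at 0.381 ± 0.0459 FPKM (SD, n = 3), fell against WT (-0.59, adjusted p = 0.000482) and against Het (-3.15, adjusted p = 1.68e-09). At levels this low the pseudocount matters, and the KO difference from WT was -1.27 with a pseudocount of 0.1. The deposited Cufflinks interval of Cdh3 reached a half-width of 76.8% of the value in the library where it was widest.

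E-cadherin was near the floor in all libraries. Cdh1 (gene21888, chromosome 8, 106603368 to 106670246) had 0.218, 0.395 and 0.208 FPKM in KO, 0.646, 0.644, 0.573 and 0.441 in Het, and 0.164, 0.179, 0.077 and 0.15 in WT. Its Het values were the highest, without overlap, but no library reached 1 FPKM and the gene was not tested. The half-width of its deposited interval was 36.5% of the value at best. Cdh1 and Cdh3 are neighbours on chromosome 8, with a gap of 46439 bp in RefSeq. The protein-coding genes on either side, Zfp90 and Tango6, were looked up after the members' values were seen. Zfp90 had 9.01 to 10.1 FPKM in Het and 8.41 to 10.4 in WT, and Tango6 5.48 to 6.40 in Het and 5.61 to 7.34 in WT. Neither was called between Het and WT (adjusted p = 0.576 for Zfp90 and 0.239 for Tango6). In KO, where Cdh3 fell, Zfp90 rose against WT (0.26, adjusted p = 0.0235).

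T-cadherin, the member without a tail, went slightly the other way. Cdh13 (gene22088, chromosome 8, 118032249 to 119324929) had 8.97, 9.89 and 10.5 FPKM in KO, 7.80, 8.61, 8.68 and 9.22 in Het, and 8.51, 11.4, 10.6 and 10.7 in WT. All groups overlapped. It fell in Het against WT (-0.23, adjusted p = 0.0423) and was higher in KO than in Het (0.27, adjusted p = 0.0334), both close to the threshold. The first call held in 10 of 21 alternatives. It was lost without any one of WT 2, WT 3, WT 4, Het 1, Het 2, Het 3, Het 4 or KO 3, with adjusted p from 0.0514 (without Het 4) to 0.118 (without Het 1). It was also lost without scaling (adjusted p = 0.0555), with no filter (0.0686) and with only Het and WT in the fit (0.0629). The second held in 14 of 21, and was lost without Het 1, Het 2, Het 3, KO 3 or KO 4, with adjusted p from 0.0581 (without Het 2) to 0.118 (without KO 4). It was also lost without scaling, where the difference was 0.17 (adjusted p = 0.177), and with no filter on low values (adjusted p = 0.0548). KO and WT differed by 0.03, with a 95% interval of -0.17 to 0.23 (adjusted p = 0.796).

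**Figure D2:**
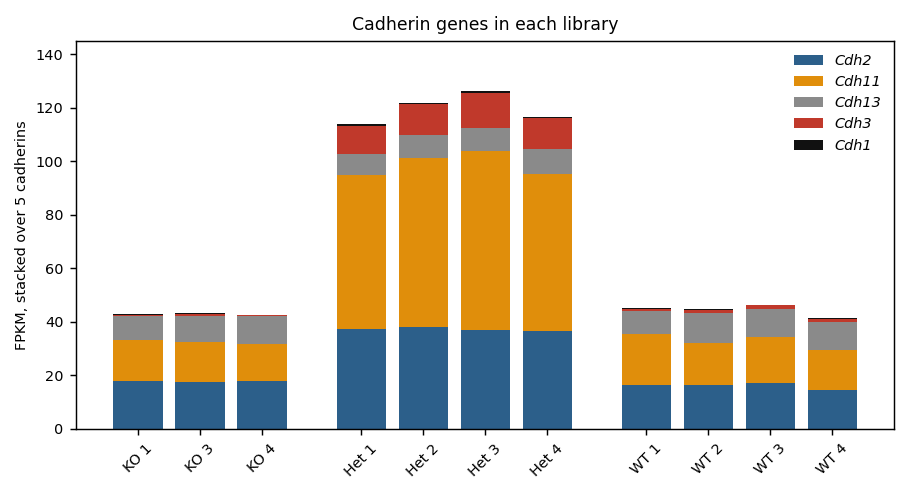
FPKM of 5 cadherin genes stacked in each library (y axis, linear, from 0), with KO, Het and WT libraries from left to right. Het bars reach 114 to 126 FPKM, against at most 43.1 in KO and 46.4 in WT, and the added height is mostly Cdh11, Cdh2 and Cdh3.

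Among the catenins, the α-catenin gene was higher in both mutant genotypes. Ctnna1 (gene41453, chromosome 18, 35118912 to 35254775) had 107, 109.8 and 111 FPKM in KO, 118, 124, 125 and 125 in Het, and 87.1, 93.6, 93.7 and 97.4 in WT. In these FPKM, which are unscaled, the 3 groups did not overlap. It rose in KO (0.34, SE 0.0459, adjusted p = 0.000134) and in Het (0.40, SE 0.0425, adjusted p = 2.73e-05). KO and Het were not called apart (-0.06, 95% interval -0.17 to 0.04, adjusted p = 0.286), except without scaling (-0.17, adjusted p = 0.0177).

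β-catenin, which serves both the junction and Wnt signalling, was the most abundant of the 9 transcripts. Ctnnb1 (gene24613, chromosome 9, 120933400 to 120960507) had 224, 224 and 209.6 FPKM in KO, 181, 188, 194 and 173 in Het, and 196, 198, 198 and 193 in WT. Every KO library lay above every other library, while Het and WT overlapped. It rose in KO against WT (0.26, SE 0.0581, adjusted p = 0.00326) and was higher in KO than in Het (0.35, adjusted p = 0.000512). Het differed from WT by -0.09, with a 95% interval of -0.21 to 0.03 (adjusted p = 0.202).

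p120-catenin varied little. Ctnnd1 (gene4060, chromosome 2, 84600781 to 84658972) had 60.8, 56.9 and 50.7 FPKM in KO, 59.0, 61.5, 63.5 and 56.9 in Het, and 54.8, 49.3, 55.0 and 47.0 in WT. Het lay above all WT libraries, and KO overlapped both. The rise in Het (0.22, adjusted p = 0.0447) held in 12 of 21 alternatives. It was lost with upper-quartile scaling (0.14, adjusted p = 0.279), with no filter (adjusted p = 0.0791), with no mean-variance trend (adjusted p = 0.0553) and without WT 2, WT 4, Het 1, Het 2, Het 3 or KO 3 (adjusted p from 0.0623 without KO 3 to 0.111 without WT 2). The KO difference of the same size (0.22, adjusted p = 0.0569) missed the threshold, and passed it without WT 1 (adjusted p = 0.0380) or without KO 4 (adjusted p = 0.0230).

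Plakoglobin, which can take the place of β-catenin on a cadherin tail and also belongs to desmosomes, varied widely between replicates. Jup (gene29025, chromosome 11, 100368856 to 100397790) had 21.2, 26.9 and 30.1 FPKM in KO, 28.2, 27.8, 39.0 and 34.6 in Het, and 11.9, 20.1, 15.6 and 33.0 in WT. All groups overlapped, and WT 4 was higher than any KO library. It rose in Het against WT (0.74, SE 0.245, adjusted p = 0.0307). That call was lost without WT 1, WT 2, WT 3, Het 3 or Het 4, with adjusted p from 0.0512 (without WT 2) to 0.0854 (without Het 3), and with no filter on low values (adjusted p = 0.0730). The KO difference of 0.54 had a 95% interval of -0.05 to 1.12 (adjusted p = 0.119), and without WT 4 it was 0.79 (adjusted p = 0.00492). Relative to Ctnnb1, the Jup level was 0.0947 to 0.144 in KO, 0.147 to 0.201 in Het and 0.0610 to 0.171 in WT.

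RefSeq promoter windows, 250 bases before to 50 after a gene's start, were examined for 3 of the 9 genes (Ctnnb1, Ctnnd1 and Jup). Promoters of the other members were not examined, so nothing is said of their sequences. The windows of Ctnnb1 and Jup are shown because these relatives fill the same place on the tail. Against WT, Ctnnb1 was called higher in KO and Jup in Het. These calls do not show opposite changes, since the uncalled KO difference of Jup (0.54) was larger than that of Ctnnb1 (0.26). KO and Het were not called apart for Jup (-0.20, adjusted p = 0.574). Capitals mark GC boxes, spelled GGGCGG, and the boxes named for their letters, CCAAT, each searched on both strands, and no matches overlapped. Both windows are from GRCm38.p6, written 5′ to 3′ on the gene's own strand: chr9:120933150-120933449, plus strand, for Ctnnb1, and chr11:100397741-100398040, minus strand, for Jup.
Ctnnb1: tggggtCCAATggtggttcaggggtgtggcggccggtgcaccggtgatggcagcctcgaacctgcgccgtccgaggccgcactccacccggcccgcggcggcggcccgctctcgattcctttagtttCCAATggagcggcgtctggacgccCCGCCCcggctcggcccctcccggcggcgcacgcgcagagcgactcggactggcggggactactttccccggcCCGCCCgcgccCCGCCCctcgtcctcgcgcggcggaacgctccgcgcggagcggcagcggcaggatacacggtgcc
Jup: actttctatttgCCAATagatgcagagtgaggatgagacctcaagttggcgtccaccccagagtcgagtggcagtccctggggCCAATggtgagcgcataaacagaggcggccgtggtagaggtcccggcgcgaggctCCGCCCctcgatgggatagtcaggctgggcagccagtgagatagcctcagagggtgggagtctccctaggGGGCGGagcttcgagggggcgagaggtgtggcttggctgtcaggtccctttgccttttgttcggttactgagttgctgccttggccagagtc
The Ctnnb1 window shown held 3 GC boxes and 2 CCAAT boxes with a GC content of 75.3%, and the Jup window 2 and 2 with 60.7%. A second window of Ctnnb1, for another start (chr9:120933328-120933627), held 3 GC boxes and 0 CCAAT boxes. Across all 32851 windows, 35.7% held a GC box and 37.4% a CCAAT box. On both strands again, the E box CACCTG, a core bound by Snail and Zeb repressors, is in 20.2% of all windows, and the CArG box of serum response factor in 1.63%. Neither sequence occurs in the windows of Ctnnb1, Ctnnd1 or Jup.

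Counted over the tested members, 3 of 8 rose and 1 fell in KO against WT, where 47.2% of all genes were called, 23.5% higher and 23.7% lower. In Het against WT 6 of 8 rose and 1 fell, beside 43.8% of all genes, 22.2% higher and 21.6% lower. That count of 7 calls dropped to 4, all higher, without WT 2 and likewise without Het 3. In KO against Het 2 were higher and 3 lower, beside 44.4% of all genes, 21.8% higher and 22.6% lower. The median log2 difference over the tested members was 0.23 in KO against WT, 0.57 in Het against WT and -0.13 in KO against Het, where that of all genes was 0.01, 0.02 and 0.00. In deposited FPKM, 5 of the 8 tested members lay above WT in Het without overlap, as did 20.3% of all genes. KO lay without overlap above WT for 3 (18.3% of all genes) and below it for 1 (30.6%), and above Het for 1 (20.7%) and below it for 4 (34.5%). Such shares are of unscaled FPKM, and the KO libraries had lower scaling factors (0.941 to 0.963) than any Het or WT library. Unscaled KO values thus lie lower, relative to the other groups, than the values fitted.

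A further contrast asked whether Het lay off the point halfway between the KO and WT means on the log2 scale. Cdh2 (1.04, adjusted p = 1.29e-07), Cdh3 (2.85, adjusted p = 1.25e-09), Cdh11 (1.86, adjusted p = 2.34e-08) and Ctnna1 (0.23, adjusted p = 0.000558) lay above it. Cdh13 (-0.25, adjusted p = 0.0188) and Ctnnb1 (-0.22, adjusted p = 0.00324) lay below it. That makes 4 of 8 above and 2 below, beside 44.2% of all genes, 21.8% above and 22.4% below. Cdh2, Cdh3 and Cdh11 were called above both WT and KO in Het, as 9.97% of all genes were. Cdh3 and Cdh11 were so by at least 1 log2 unit on both sides, as 1.16% were.

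**Figure D3:**
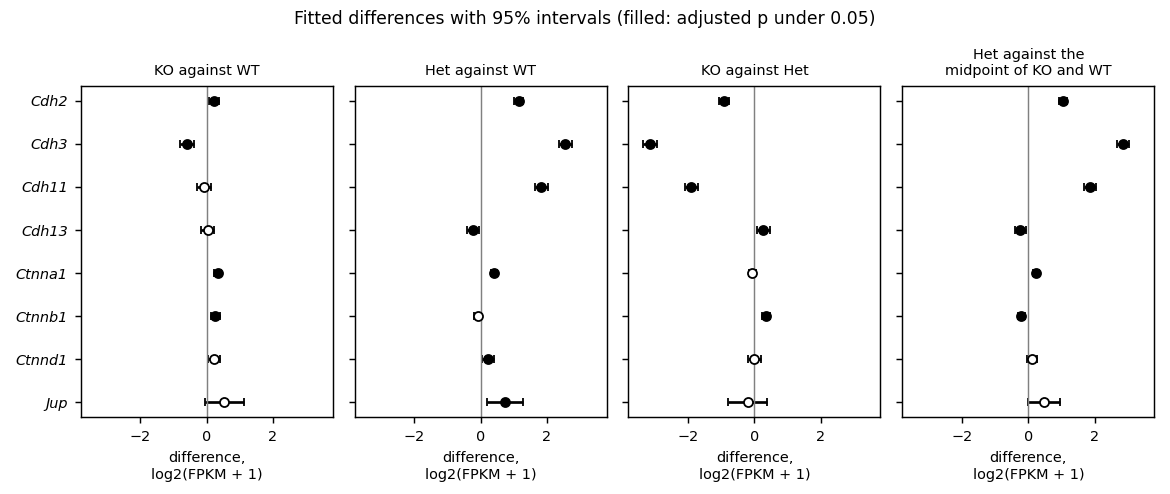
Fitted differences on the log2(FPKM + 1) scale (x axis) for the 8 tested members (rows) in 4 contrasts, with 95% intervals. Filled points have an adjusted p under 0.05. Cdh2, Cdh3 and Cdh11 stand at 1.16, 2.56 and 1.83 in Het against WT, while in KO against WT no member exceeds 0.59 in size.

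The genes most like each member were sought by Pearson's r of log2(FPKM + 1) over the 11 libraries, which fall into clusters by genotype, so that r reads differences between genotypes as well as between replicates. For Cdh11 they were the X-linked chloride transporter gene Clcn5 (r = 0.997) and Thbs2 (0.996), for Cdh3 Tgfbi (0.997) and Hoxc10 (0.995), and for Cdh2 Sept2 (0.995) and Kdm6a (0.994). Thrombospondin-2 (Thbs2), a matrix protein, averaged 0.922 FPKM in KO, 8.51 in Het and 0.947 in WT. Tgfbi, another secreted matrix protein, averaged 10.7 FPKM in KO, 47.9 in Het and 14.9 in WT. The Hox gene Hoxc10 averaged 0.038 FPKM in KO, 8.63 in Het and 0.367 in WT. Kdm6a, a histone demethylase gene that is also X-linked, averaged 7.86 FPKM in KO, 16.0 in Het and 6.72 in WT. Jup was most like Zmiz1 (0.987) and Uhrf1 (0.984), which like Jup were lowest in WT 1 and, within WT, highest in WT 4. Ctnna1 was most like Dennd2a (0.993) and Ago2 (0.991), and Ctnnb1 like Ppfibp1 (0.978) and Mpp5 (0.972). For Ctnnd1 the values were 0.969 with Ankhd1 and 0.968 with Gars, and for Cdh13 0.922 with both Adrbk1 and Ppp5c.

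Het also differed in a transcript of the X chromosome. Xist, transcribed from the inactive X chromosome of female cells, had 0.033 to 0.053 FPKM in KO, 45.7 to 52.0 in Het and 0.037 to 0.060 in WT. Of the Y-linked genes, Kdm5d was listed at 0 in every library, and Uty reached at most 0.252 FPKM. The Het pattern of Cdh2, Cdh3 and Cdh11 and this difference fall on the same 4 libraries, so genotype and cell source cannot be told apart.

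The 13 fibroblast and mesenchymal markers summed to 3886 to 4594 FPKM in KO, 2982 to 3392 in Het and 1944 to 2496 in WT, with Vim alone averaging 1431 FPKM in KO, 871 in Het and 900 in WT. Some defining markers were near the floor. Thy1 was at 0 in WT 1, WT 2 and WT 3, Pdgfra had 0.163 to 0.235 FPKM in WT, and Fap was at most 0.128 FPKM anywhere. Of 12 tested, 10 rose and none fell in KO, and 9 rose and 1 fell in Het, where of all genes 23.5% rose and 23.7% fell in KO, and 22.2% rose and 21.6% fell in Het. Prrx1, a factor of limb and facial mesenchyme, averaged 28.2 FPKM in KO, 63.0 in Het and 11.7 in WT, and was called in both (1.31, adjusted p = 1.53e-06 in KO, and 2.34, adjusted p = 1.69e-08 in Het). The collagen gene Col1a2 (10.9 FPKM in KO, 198 in Het and 7 in WT) and the receptor gene Pdgfra (0.916, 4.43 and 0.215) were also highest in Het, while Twist1 fell there (-0.79). Their part in the Het pattern of the cadherins was not tested. The 18 epithelial markers summed to 35.8 to 55.1 FPKM in KO, 30.2 to 43.1 in Het and 32.4 to 80.8 in WT, mostly Krt19. Of 5 tested, 1 rose and 3 fell in KO, and 1 rose and 2 fell in Het. Epcam, which defines epithelium, was at 0 in KO 3 and KO 4 and at most 0.634 FPKM anywhere. The keratin gene Krt18 averaged 0.205 FPKM in KO, 6.69 in Het and 1.72 in WT, the order seen for Cdh3, and its part in that result was not tested. Other members of the list went other ways, since Krt14 (-1.32) and Esrp2 (-0.69) fell in Het, and Krt7 averaged 8.49 FPKM in KO, 0.360 in Het and 0.151 in WT. Endothelial markers summed to at most 0.689 FPKM in KO, 0.554 in Het and 0.397 in WT. In bulk RNA, a change in the number of cells of a type and a change in RNA per cell cannot be told apart.

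Desmosomes are the other cadherin-based junction, tied to intermediate filaments. Of 11 listed genes 4 were tested, and all 4 fell in Het against WT, where 21.6% of all genes fell. In KO 1 rose and 2 fell, where 23.5% of all genes rose and 23.7% fell. The linker desmoplakin (Dsp) averaged 1.70 FPKM in KO, 0.997 in Het and 6.40 in WT, and fell in both (-1.38, adjusted p = 7.48e-07 in KO, and -1.88, adjusted p = 6.64e-08 in Het). Plakophilin-1 (Pkp1) had 7.88 to 8.27 FPKM in KO, 1.67 to 2.07 in Het and 7.17 to 8.66 in WT, with a log2 difference of -1.62 in Het (adjusted p = 3.22e-08) and 0.11 in KO (adjusted p = 0.248). Pkp2 averaged 24.1, 8.78 and 21.5 FPKM in KO, Het and WT, rising by 0.26 in KO (adjusted p = 0.0139), while in Het it fell by 1.20 (adjusted p = 2.78e-07). The desmosome-associated membrane protein gene Perp averaged 21.7 FPKM in KO, 14.3 in Het and 33.2 in WT. The desmosomal cadherins were too low to test. Dsc2 had the highest means of the untested genes and differed little, at 0.862 FPKM in KO, 0.813 in Het and 0.803 in WT. Dsg2, with the highest single value, had 0.00284 to 0.0317 FPKM in KO, 0.605 to 1.01 in Het and 0.199 to 0.342 in WT. Its Het libraries lay above the others, as for Cdh3.

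Other catenins and adherens junction linkers, listed together, were mixed. Of 21 tested genes, 5 rose and 8 fell in KO, and 5 rose and 8 fell in Het. Of all genes, 23.5% rose and 23.7% fell in KO, and 22.2% rose and 21.6% fell in Het. Vinculin (Vcl), which α-catenin recruits under tension, had 116 to 123 FPKM in KO, 60.6 to 64.8 in Het and 116 to 121 in WT. It fell in Het (-0.91, adjusted p = 1.51e-07), and its KO difference was 0.11 (adjusted p = 0.106). The LIM protein gene Ajuba averaged 18.9 FPKM in KO, 22.9 in Het and 42.9 in WT and fell in both (-1.04 and -0.88). In KO Magi1 (1.32) and the actin-binding gene Lima1 (1.22) rose, and Shroom2 (-2.16) fell. Tjp1, the scaffold ZO-1 of tight and adherens junctions, was picked after its values were seen. It averaged 15.8 FPKM in KO, 41.7 in Het and 24.1 in WT, the order found for Cdh3.

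**Figure D4:**
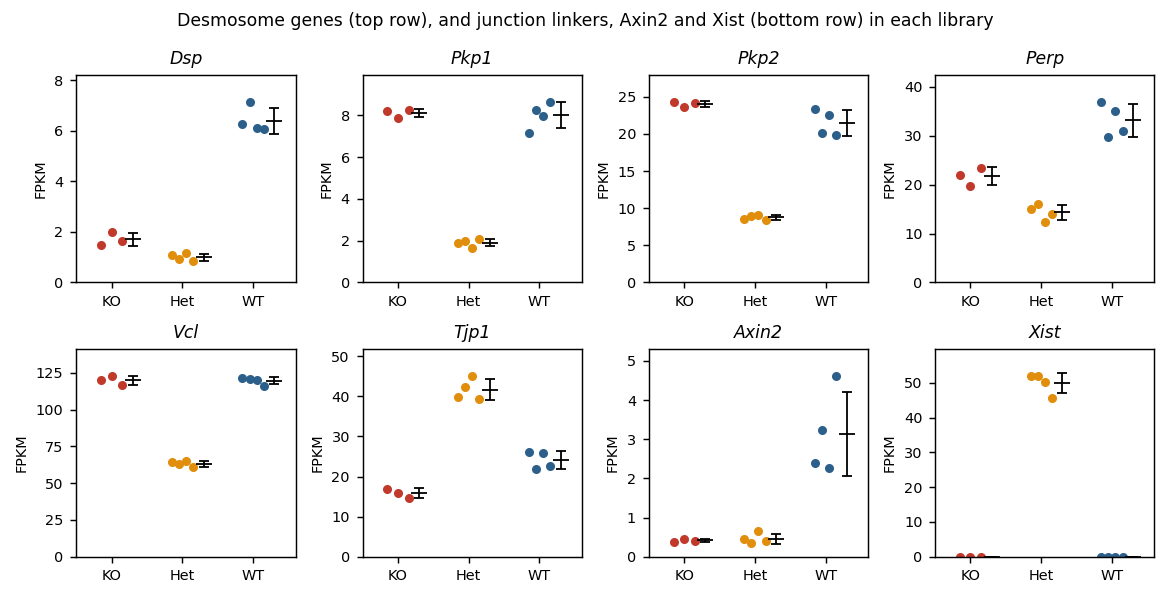
FPKM (y axes, linear, from 0) of 4 desmosome genes (top) and of Vcl, Tjp1, Axin2 and Xist (bottom) in each KO, Het and WT library. Points are libraries and bars the mean ± SD. Pkp1, Pkp2 and Vcl are low in Het alone, at 1.91, 8.78 and 63.1 FPKM on average, and Axin2 is low in both KO and Het.

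In the list of further classical and atypical cadherins 6 of 24 were tested, of which 4 rose and 1 fell in KO, and none rose and 3 fell in Het. For this and the next lists, the shares over all genes were 23.5% higher and 23.7% lower in KO, and 22.2% and 21.6% in Het. Cdh10, a neural cadherin, averaged 4.62 FPKM in KO, 0.246 in Het and 0.603 in WT (1.88 in KO, adjusted p = 8.92e-08). Cdhr1, known from photoreceptors, averaged 17.9, 2.81 and 11.9 FPKM in KO, Het and WT, and fell in Het (-1.76, adjusted p = 6.8e-08). Of 5 tested Fat, Dachsous and flamingo genes 3 rose and 1 fell in both KO and Het. The giant cadherin genes Fat4 (1.78 in KO and 0.92 in Het) and Fat1 (0.85 and 0.19) were among those that rose. Celsr2 was the gene that fell (-1.14 in KO and -0.80 in Het). Of 4 tested protocadherins, 2 rose and 1 fell in KO, and 3 rose and 1 fell in Het. The X-linked gene Pcdh19 averaged 9.02 FPKM in KO, 31.7 in Het and 16.6 in WT, and so was on opposite sides of WT (-0.71, adjusted p = 1.53e-05 in KO, and 0.90, adjusted p = 2.12e-06 in Het). Among nectins and their relative Pvr, immunoglobulin-type partners of the adherens junction, 3 of 4 tested rose in KO and 1 in Het, with Pvrl3 at 0.84 in KO (adjusted p = 2.23e-05).

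A list of proteases, kinases, phosphatases and other regulators of cadherin turnover and phosphorylation had 7 of 20 higher and 5 lower in KO, and 5 higher and 3 lower in Het. Of all genes, 23.5% were higher and 23.7% lower in KO, and 22.2% and 21.6% in Het. The Src-family kinase gene Fyn averaged 24.4 FPKM in KO, 15.0 in Het and 11 in WT and rose in both (1.19 and 0.42). Of 25 genes of the β-catenin destruction complex and its nuclear partners, 6 rose and 6 fell in KO, close to those shares, and 8 rose and 5 fell in Het. Axin2, a scaffold of that complex and a target of Wnt signalling, had 0.388, 0.466 and 0.403 FPKM in KO, 0.448, 0.350, 0.647 and 0.411 in Het, and 2.40, 3.24, 2.26 and 4.61 in WT. Both mutant groups lay below every WT library (-1.46, adjusted p = 3.01e-05 in KO, and -1.45, adjusted p = 2.28e-05 in Het). Tcf7, a DNA-binding partner of β-catenin, averaged 6.25 FPKM in KO, 3.42 in Het and 8.55 in WT and fell in both (-0.31, adjusted p = 0.00883, and -1.11, adjusted p = 8.61e-07).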

How the data were processed

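The deposited values are FPKM per gene and library, with the ends of an interval, made with TopHat2 2.1.0 and Cufflinks 2.2.1 on GRCm38.p4, per the submitters' processing notes, which also name Cuffdiff. Libraries were stranded mRNA preparations, per the labels' protocols. The deposited tables list 48892 loci and no counts, so count models were not used. FPKM of loci sharing a symbol were summed, and 31 symbols that had turned into dates in the WT 1 file were taken from another library's file. Median-of-ratios scaling used 12503 genes and gave factors of 0.941 to 0.963 in KO, 1.01 to 1.04 in Het and 1.00 to 1.04 in WT. Printed FPKM are unscaled, and whether groups overlap was read on them, while the fits used scaled values. Genes with at least 1 FPKM in at least 3 libraries were fitted with limma 3.58.1 in R 4.3.3 on log2(FPKM + 1), with 1 mean per group, all 11 libraries sharing the spread, and empirical Bayes with a mean-variance trend. The fit was also run on simulated data in which libraries varied independently, and no result here rests on that run. Intervals of differences cover 95%.

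The 9 members and the other lists were chosen with earlier results of these data known. From each other list the text may name up to 4 called genes with the largest difference in KO against WT and 2 in Het against WT. One gene that this rule names is not reported here. Members' likeness used genes of at least 5 FPKM in some group, leaving out predicted and clone names. Locus positions are those of the files, counted from 1, and promoters and neighbours come from RefSeq on GRCm38.p6. The alternatives changed the scaling, pseudocount, filter, locus choice, trend, libraries in the fit and replicate block, and left out each library.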

Additional observations from a re-analysis of the deposited data

Results flagged for a closer look

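Of 18 sets of 4 libraries examined (9 genes in Het and in WT), 1 had a library far from the rest. Ctnna1 in Het 1, at 118 FPKM, lay below the 124 to 125 FPKM of Het 2, Het 3 and Het 4, a gap of 0.861 of the group's range, past Dixon's 95% critical value. Chance gives about 1 such set in 20. Leaving out any 1 library kept Ctnna1 called higher in Het than in WT, with a log2 difference between 0.32 and 0.42 over all alternatives.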

How the results depend on the processing

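Of 32 member differences, 19 kept their direction and their side of the threshold in all alternatives that gave a value, among them every contrast of Cdh3 (left out by a filter of 1 FPKM in all libraries) and those of Cdh2 and Cdh11 that involve Het. Counts of called genes stayed within 1.5 times, except members called in Het against WT, which ranged from 4 to 7 over the fits without 1 library. Those fits gave 4 to 5 called members in KO against WT, 4 to 5 in KO against Het and 5 to 7 against the midpoint. The differences that changed sign were never called. They were Cdh11 in KO against WT without WT 1 (0.0013, with -0.125 at the other end of the fits without 1 library), Cdh13 in KO against WT without scaling (-0.0628), with upper-quartile scaling (-0.0335), without WT 1 (-0.0402) and without KO 4 (-0.0094, against up to 0.0813), and Ctnnd1 in KO against Het with upper-quartile scaling (0.0103), with 1 locus per symbol (0.0015), without Het 2 (0.0154), without Het 3 (0.0254) and without KO 4 (0.0789, against down to -0.0674). The share of called genes that were higher moved with the scaling, being 37.1% without it and 49.8% with it in KO against WT, 36.5% and 49.1% in KO against Het, and 39.9% with upper-quartile scaling and 50.7% as reported in Het against WT. Medians of all genes stayed within 0.1 of 0. The cause was not tested. With no filter on low values Cdh1 entered the fit, with a log2 difference of 0.46 in Het against WT (adjusted p = 0.000549) and 0.17 in KO against WT (adjusted p = 0.0988).

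Replicate numbers are shared by the groups, and 5 of 10 same-numbered pairs had deviations correlated over 0.1 (lowest -0.10, highest 0.35). Those 5 were all 3 pairs of replicate 4 (0.254 to 0.352) and 2 of 3 of replicate 1 (0.128 and 0.333). Pairs with different numbers ranged from -0.40 (WT 4 and KO 1) to 0.18 (WT 1 and Het 2). What the numbers stand for is not in the labels, and the main fit did not pair the libraries by them. With the replicate block, 7303 genes were called in KO against WT, 7020 in Het against WT, 6900 in KO against Het and 7030 against the midpoint, and 5, 7, 5 and 6 members. Without it the numbers were 7053, 6547, 6640 and 6609 genes, and 4, 7, 5 and 6 members. Ctnnd1 then passed in KO against WT (0.22, adjusted p = 0.0203).

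Depth limits Cdh1 and Cdh3 most, whose deposited intervals reached half-widths of 121% and 76.8% of the value.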

Other observations

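Of the 9 genes, 4 lie on chromosome 8 and 2 on chromosome 18. Among the 743 tested genes of chromosome 8, the median log2 difference of Het from WT was -0.02, and 15.3% were called higher, against 22.2% of all genes tested. Cdh3 (2.56) and Cdh11 (1.83) thus stand far above the median of their chromosome. Among the 352 tested genes of chromosome 18, which carries Cdh2 and Ctnna1, the median was 0.10 in KO and 0.17 in Het against WT, and 33.2% were called higher in KO and 38.1% in Het, against 23.5% and 22.2% of all genes. The differences of Cdh2 and Ctnna1 in Het, 1.16 and 0.40, lie above that median, and its part in them was not tested. Ctnnb1, Ctnnd1 and Jup lie on chromosomes 9, 2 and 11. On chromosome 9 the median was -0.15 in KO and -0.16 in Het against WT, beside 0.26 and -0.09 for Ctnnb1. Of its 738 tested genes 35.4% were called lower in KO and 38.9% in Het, against 23.7% and 21.6% of all genes. The medians in KO and Het were -0.12 and 0.07 on chromosome 2, and -0.03 and 0.06 on chromosome 11. Their part in the members' differences was not tested.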
